A study of Mus musculus with 39 samples.

Results

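Carbonic anhydrases catalyse the reversible hydration of carbon dioxide to bicarbonate and a proton. The 7 genes described here, Car1, Car2, Car4, Car8, Car9, Car12 and Car13, were taken by symbol from the tissue tables, where they make up 7 of 34600 entries and 7 of the 16 carbonic anhydrase genes listed there. RNA had been sequenced from colon, ileum and a piece labelled duodenum/jejunum of 13 animals from a pair of inbred strains, 6 BALB/cJ and 7 C57BL/6J, with 1 library per mouse and tissue (39 libraries). The labels name strain, tissue and mouse number and no treatment, allele, age, sex or batch. Tissue pieces were sequenced whole, so fewer cells of a type and less RNA per cell cannot be told apart in any value below. Levels are TPM, the abundance of a gene's transcripts relative to all transcripts of a library, scaled for transcript length. Each ± is a standard deviation (SD) over mice unless called SE, with n = 6 for BALB/cJ and n = 7 for C57BL/6J.

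In the gut, carbonic anhydrases supply bicarbonate and protons to apical exchangers, which in the colon couple sodium and chloride uptake to acid and base secretion and in the duodenum feed bicarbonate secretion against gastric acid. Car1, Car2 and Car13 encode cytosolic enzymes, Car4 an enzyme held at the apical surface by a lipid anchor, and Car9 and Car12 membrane-spanning enzymes whose catalytic domain faces outward. Car9 is a textbook target of the hypoxia-inducible factors. Car8 encodes a related protein that has lost the catalytic activity and binds an inositol trisphosphate receptor.

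On GRCm38, with the GENCODE M21 annotation, the 3 cytosolic genes are protein-coding neighbours on chromosome 3. Car13 lies at chr3:14641727-14663002 on the plus strand, Car1 at chr3:14766216-14808368 on the minus strand and Car2 at chr3:14886273-14900770 on the plus strand. With Car3, the muscle and fat enzyme, at chr3:14863512-14872523, they form a cluster of 4 genes within 259 kb. Car4 lies at chr11:84957786-84966044, Car8 at chr4:8143362-8239041 on the minus strand, Car9 at chr4:43506966-43513729 and Car12 at chr9:66713686-66766845.

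Promoter sequences are shown for the 3 membrane-bound enzymes, to set beside their levels: Car4 was highest in the colon, Car9 varied little and Car12 differed between the strains in the small intestine. They are RefSeq sequences on GRCm38.p6, from 250 bases before to 50 after the RefSeq start, all on the plus strand, at chr11:84957504-84957803, chr4:43506776-43507075 and chr9:66713436-66713735. Capitals mark matches, on either strand, to ACGTG, the core of the hypoxia response element, or to TATAAA, the TATA box. GCGTG, the other form of the hypoxia core, and TTTATG, a site form bound by the intestinal factor Cdx2, were searched too. No marked matches overlapped.
Car4: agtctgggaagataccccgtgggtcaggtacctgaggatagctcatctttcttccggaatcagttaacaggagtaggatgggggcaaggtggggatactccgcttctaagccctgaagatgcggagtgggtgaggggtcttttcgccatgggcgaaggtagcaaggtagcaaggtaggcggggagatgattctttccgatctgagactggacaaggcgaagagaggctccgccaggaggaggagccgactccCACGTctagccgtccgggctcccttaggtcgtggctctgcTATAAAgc
Car9: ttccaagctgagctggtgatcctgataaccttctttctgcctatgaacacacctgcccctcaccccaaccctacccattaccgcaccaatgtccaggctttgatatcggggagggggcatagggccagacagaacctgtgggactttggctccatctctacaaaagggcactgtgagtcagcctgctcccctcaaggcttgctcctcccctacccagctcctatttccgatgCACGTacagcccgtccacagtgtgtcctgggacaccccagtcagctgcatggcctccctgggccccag
Car12: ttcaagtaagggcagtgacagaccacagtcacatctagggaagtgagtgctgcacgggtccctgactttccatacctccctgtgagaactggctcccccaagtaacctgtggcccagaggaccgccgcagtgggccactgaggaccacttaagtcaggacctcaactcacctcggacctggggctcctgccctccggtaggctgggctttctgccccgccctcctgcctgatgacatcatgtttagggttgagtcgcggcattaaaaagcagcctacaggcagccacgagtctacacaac
Car4 held CACGT, the reverse of ACGTG, at position 3 after the start and TATAAA at position 43. Car9 held CACGT at position -18. The Car12 window held none of the 4 motifs. Of 32851 mouse promoter windows of the same 300 bases, 19.6% held ACGTG, 32.4% GCGTG, 13.6% TATAAA and 11.9% TTTATG, and 43.8% held 1 or both hypoxia cores. A match is a description of the letters and not evidence of binding. The promoter table used here gave a window for 3 of the 7 genes; Car1, Car2, Car8 and Car13 are named only.

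The libraries held 979558 to 996230 TPM in all, so the 3 tables were in the same unit. Such totals follow from the unit and cannot show whether the mix of transcripts shifts levels between tissues. Results under another scaling are therefore given further below. Region markers were highest in their own tissue for 5 of 5 colon, 5 of 5 ileum and 5 of 6 duodenum and jejunum genes (Slc40a1 was not). Region markers of C57BL/6J mouse 2 went against its labels. In its library labelled ileum the 5 ileal markers summed to 346 TPM, against 4410 to 9397 in the other libraries of that group, and the 6 duodenum and jejunum markers to 8431. In its library labelled duodenum/jejunum the ileal markers summed to 6792 TPM and the duodenum and jejunum markers to 3770. Other lists ran with the labels: gastric and Brunner gland markers summed to 5.86 TPM in the first and 3204 in the other library, and pancreatic acinar markers to 8.80 and 619. Both libraries were kept under their labels. Strain and tissue results that rest on them are also given without this mouse, and the genes most like each member are not. Erythroid markers, which matter because red cells hold Car1 and Car2, were higher in BALB/cJ in the colon (sums of 170 to 479 against 65.6 to 151 TPM) and the ileum (214 to 428 against 74.4 to 154), with 4 of 5 tested genes called in each; their part in the strain differences was not tested.

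The colon held far more carbonic anhydrase transcript than either part of the small intestine, and a different mixture. The 7 genes summed to 4536 ± 865 TPM in the BALB/cJ and 6044 ± 1477 in the C57BL/6J colon. The ileum sums were 263 ± 21.4 and 309 ± 46.0, and those of the duodenum/jejunum 274 ± 17.8 and 304 ± 27.1. Car1 alone made up 67.0% ± 5.47 of the colon sum in BALB/cJ and 69.8% ± 8.81 in C57BL/6J. In the small intestine its share was 1.15% to 2.26% in the 4 groups, and Car4 led with 38.8% to 54.9%, followed by Car9 (18.2% to 27.7%) and Car13 (15.7% to 19.1%).

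**Figure D1:**
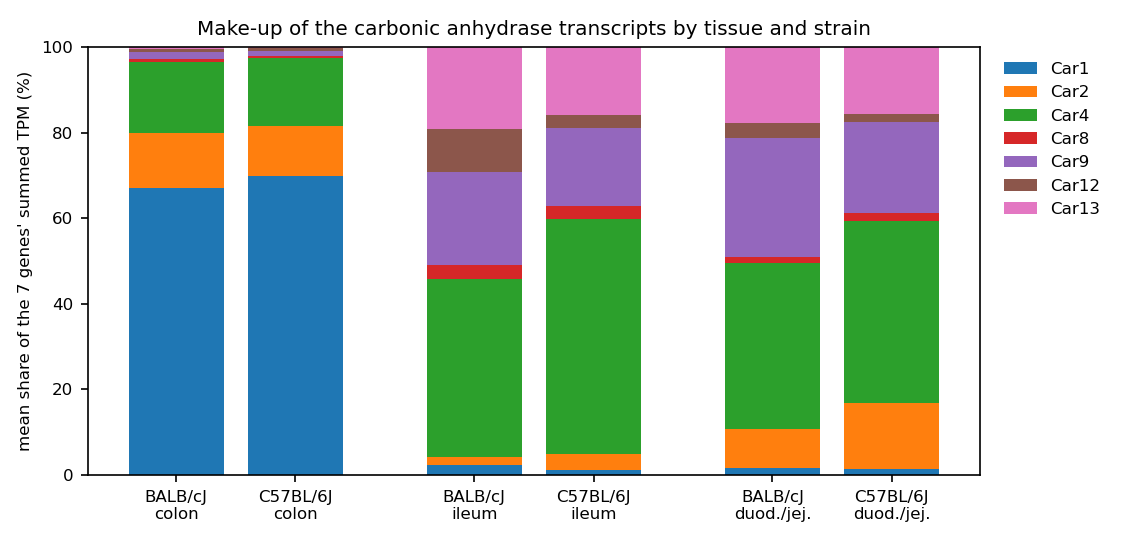
Stacked bars give each gene's mean share, in percent, of the summed TPM of the 7 genes in the 6 groups of strain and tissue. Car1 fills 67.0% and 69.8% of the colon bars, while Car4, Car9 and Car13 make up most of the small intestinal bars.

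In BALB/cJ, limma called 6 of the 7 genes between colon and ileum, where it called 46.1% of the 17126 genes tested. Of the 6, 5 were higher in the colon (30.3% of all genes) and 1 lower (15.8%). Between colon and duodenum/jejunum it called 5 higher and 1 lower (63.5% of all genes, 49.0% higher and 14.5% lower). Between ileum and duodenum/jejunum it called 2 higher and 2 lower (43.1%, 35.5% and 7.63%). In C57BL/6J, 6 were higher and 1 lower in colon than ileum (61.7%, 46.5% and 15.2%), and 5 higher and 1 lower in colon than duodenum/jejunum (64.6%, 49.4% and 15.3%). In C57BL/6J, ileum against duodenum/jejunum gave 1 higher and 1 lower (11.3%, 5.54% and 5.79%). Without mouse 2 there were 4 calls in all, and the calls over all genes rose as well, as given further below. With 46.1% to 64.6% of all genes called between the colon and the small intestine, the counts say little beside the sizes. Car1, Car2, Car4 and Car8 were called higher in the colon than in both other tissues in both strains, and Car13 lower. The median of all genes was itself shifted toward the colon by 0.11 to 0.29 on the log2 scale. With median-of-ratios scaling, which removes that shift, these 5 genes kept direction and call in each of the 4 comparisons with the colon.

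**Figure D2:**
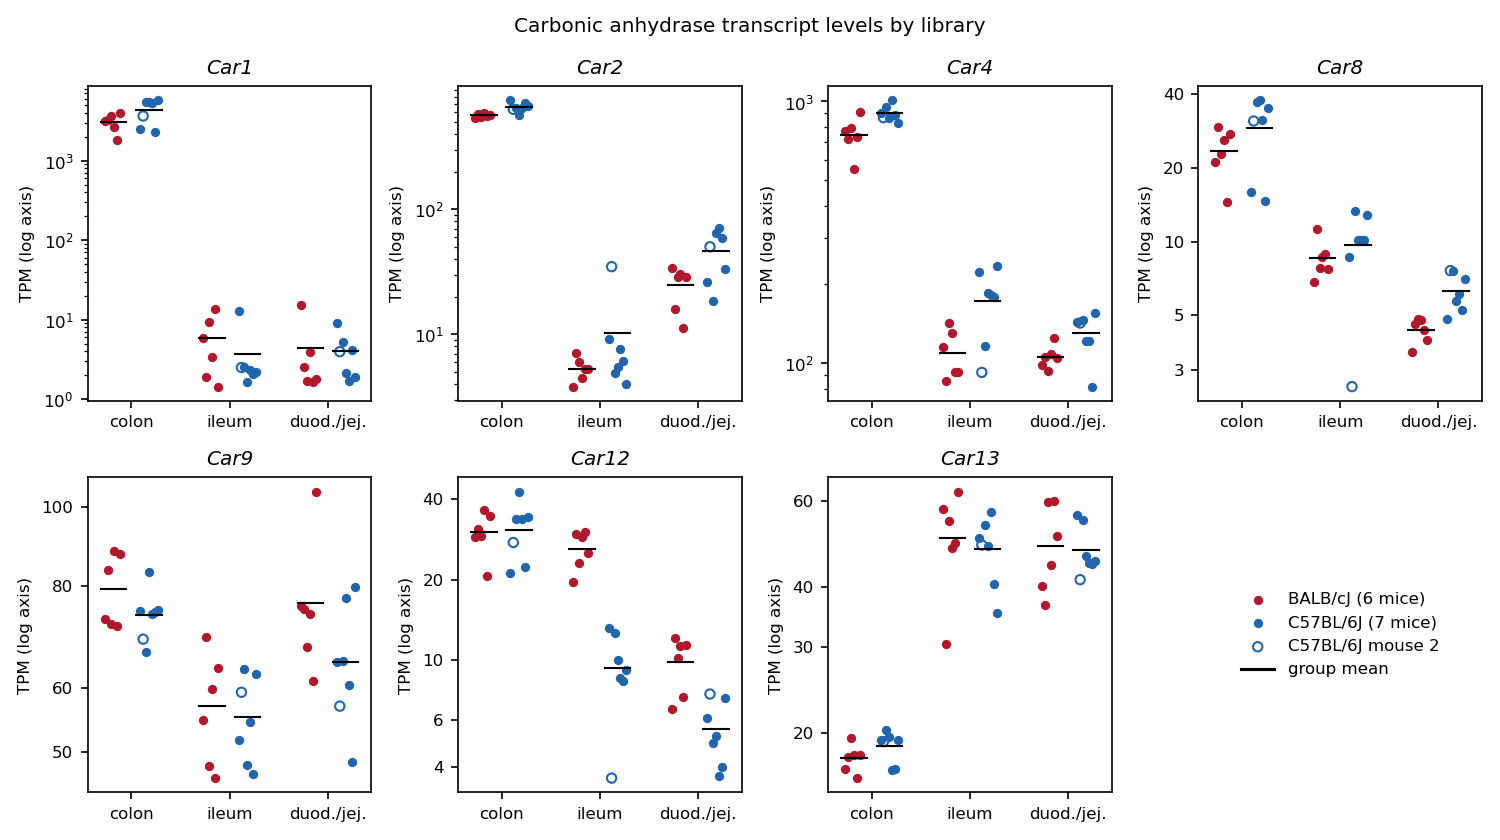
Each point is 1 library's TPM on a log axis, by tissue and strain, with a bar at the group mean and open circles for C57BL/6J mouse 2. Car1, Car2, Car4 and Car8 are highest in the colon and Car13 lowest there, and the 6 BALB/cJ ileum libraries lie above the 7 C57BL/6J ones for Car12.

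Between the strains, limma called 1 or 2 of the 7 genes in each tissue. The shares called over all genes stand beside these counts, which are too small to be set apart from them. For the colon limma called 2, Car2 and Car4, both lower in BALB/cJ, where 25.3% of 15769 genes were called in either direction, 14.5% higher and 10.8% lower. For the ileum it called 1, Car12, higher in BALB/cJ, and none lower (20.4% of 15537 genes, 17.2% higher and 3.17% lower). For the duodenum/jejunum it called Car12, higher, and Car8, lower (9.50% of 15306 genes, 4.70% higher and 4.80% lower). No member separated the strains without overlap in the colon, which 11.5% of genes did. The median difference of the 7 genes, BALB/cJ minus C57BL/6J on the log2(TPM + 1) scale, was -0.22 for colon, 0.04 for ileum and -0.11 for duodenum/jejunum, against 0.02, 0.17 and 0.01 over all genes tested. All 7 genes passed the filter of 1 TPM in 6 libraries in every tissue.

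**Figure D3:**
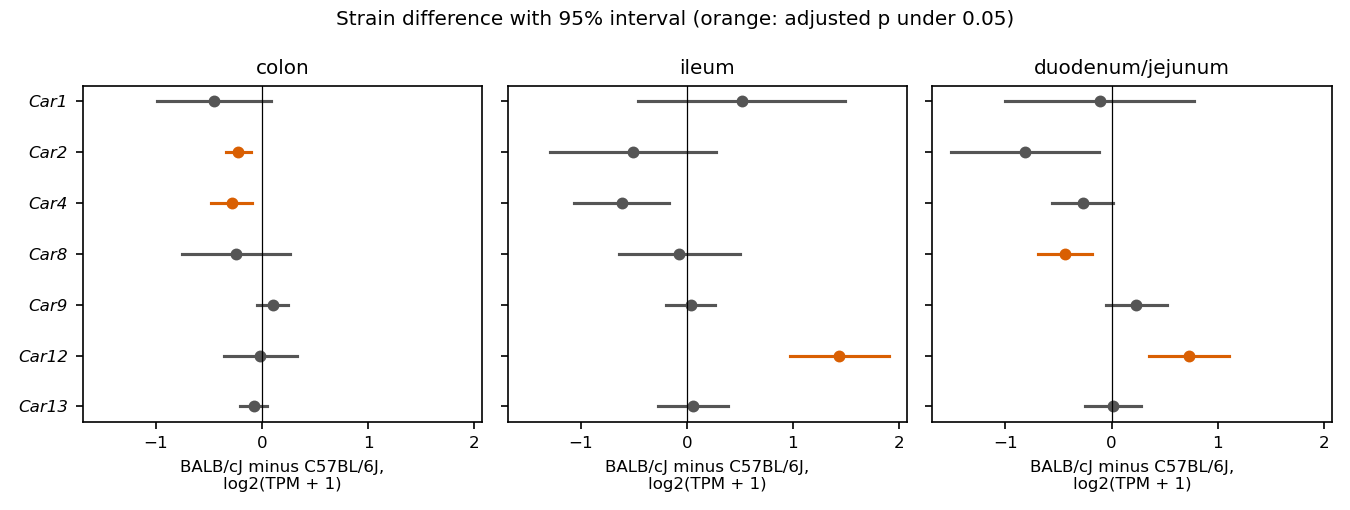
Points are the strain difference, BALB/cJ minus C57BL/6J in log2(TPM + 1), of each gene in each tissue, with 95% intervals from limma; orange marks an adjusted p under 0.05. Car12 stands at 1.44 (ileum), 0.73 (duodenum/jejunum) and -0.01 (colon).

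Car12 encodes a membrane-spanning enzyme of secretory and absorptive epithelia, and it gave the clearest difference between the strains. In the ileum its levels ran from 19.7 to 30.1 TPM with a median of 27 in BALB/cJ and from 3.64 to 13.2 with a median of 9.25 in C57BL/6J. Every BALB/cJ library lay above every C57BL/6J library, which held for 9.82% of all genes tested in the ileum. The means, 26.1 ± 4.17 against 9.40 ± 3.18 TPM, differed 2.77-fold, with a log2 difference of 1.44 ± 0.22 SE and a limma adjusted p of 4.1e-04. The lowest C57BL/6J value, 3.64 TPM, was that of mouse 2. Without this mouse the C57BL/6J mean was 10.4 ± 2.09 TPM and the difference 1.26 (limma adjusted p 1.8e-05). It was called under all 18 alternatives, with an adjusted p of 1.8e-05 to 0.0161. The epithelium marker score, a mean of log2(TPM + 1) over 10 genes, was 8.77 ± 0.11 in BALB/cJ and 8.71 ± 0.19 in C57BL/6J ileum, and with it as a covariate the difference was 1.32.

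In the duodenum/jejunum, Car12 ran from 6.58 to 12.1 TPM (median 10.8) in BALB/cJ and from 3.71 to 7.5 (median 5.22) in C57BL/6J. The ranges overlapped, with 4 of 6 BALB/cJ libraries above every C57BL/6J one. The means of 9.83 ± 2.33 and 5.53 ± 1.49 TPM gave a log2 difference of 0.73 ± 0.18 SE (limma adjusted p 0.0147, and 0.00953 without C57BL/6J mouse 2). In the colon the strains overlapped widely, at 20.6 to 36.3 TPM (median 30.1) and 21.3 to 42.5 (median 33.5), with means of 30.1 ± 5.52 and 30.7 ± 7.51. The colon difference was -0.01 with a 95% interval of -0.36 to 0.33, a range that leaves out the size seen in the ileum.

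The strain difference of Car12 was tested for a difference between tissues in 1 fit of all 39 libraries. Colon against ileum gave -1.45 ± 0.28 SE on the log2 scale (limma adjusted p 6.3e-04, and a value of -1.29 without C57BL/6J mouse 2). Car12 was the only 1 of the 7 genes called in this comparison, in which 4.08% of genes were called and 2.62% lower. Colon against duodenum/jejunum gave -0.75 (adjusted p 0.118 in limma) and was called without C57BL/6J mouse 2, at -0.83 (adjusted p 0.025; 0.025 to 0.172 over 5 alternatives). Ileum against duodenum/jejunum gave 0.71 (limma adjusted p 0.113), and 0.46 without this mouse (limma adjusted p 0.25). No member was called in these last 2 comparisons, where limma called 5.59% and 3.92% of genes; at an unadjusted p under 0.05, 1 of 7, Car12, passed in each, as did 17.4% and 24.1% of all genes.

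Seen along the gut, the order of Car12 levels was colon, ileum, duodenum/jejunum in both strains. Both stepped down from ileum to duodenum/jejunum, and the strains were not told apart in that step (limma adjusted p 0.113). C57BL/6J also stepped down from colon to ileum. In BALB/cJ, colon and ileum did not differ beyond their spread (1.15-fold, limma adjusted p 0.47) and the ileum stood 2.65-fold above the duodenum/jejunum. In C57BL/6J the colon stood 3.27-fold above the ileum (log2 difference 1.65 ± 0.19 SE) and the ileum 1.70-fold above the duodenum/jejunum (limma adjusted p 0.0229). Without mouse 2 the 2 C57BL/6J steps were 1.48 and 0.88 on the log2 scale.

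Car1, the abundant cytosolic enzyme of the colonic surface, showed the largest tissue contrast of the 7 genes. Colon levels ran from 1819 to 4016 TPM (median 3162) in BALB/cJ and from 2269 to 5725 (median 5298) in C57BL/6J. In the ileum they were 1.44 to 13.5 (median 4.66) and 1.67 to 12.8 TPM (median 2.35), and in the duodenum/jejunum 1.66 to 15.1 (median 2.17) and 1.72 to 9.20 (median 3.96). No colon library came near any small intestinal one. Mean levels were 518-fold and 1160-fold higher in the colon than in the ileum in BALB/cJ and C57BL/6J, and 691-fold and 1069-fold higher than in the duodenum/jejunum (log2 differences of 9.04 ± 0.43 to 10.01 ± 0.40 SE). Ileum and duodenum/jejunum were not distinguishable in either strain (limma adjusted p 0.445 and 0.825).

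Between the strains, colon Car1 averaged 3074 ± 779 TPM in BALB/cJ, beside 4330 ± 1491 in C57BL/6J, and the ranges overlapped. The difference of -0.45 had a 95% interval of -0.99 to 0.09 and was not called (limma adjusted p 0.218). In the ileum (5.94 ± 4.74 against 3.73 ± 4.00 TPM) and the duodenum/jejunum (4.45 ± 5.28 against 4.05 ± 2.62) the SD was large beside the mean, with single libraries at 12.8 to 15.1 TPM.

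Car2, the fast cytosolic enzyme found in many epithelia and in red cells, was highest in the colon, next in the duodenum/jejunum and lowest in the ileum in both strains. Its colon levels were tight: 543 to 592 TPM (median 564) in BALB/cJ and 573 to 746 (median 653) in C57BL/6J. In the duodenum/jejunum they were 11.2 to 34.2 (median 29) and 18.5 to 71.0 (median 50.2), and in the ileum 3.81 to 7.09 (median 5.26) and 4.00 to 34.8 (median 6.17). The highest ileum value, 34.8 TPM, was that of C57BL/6J mouse 2. The colon stood 106-fold and 64.2-fold above the ileum in BALB/cJ and C57BL/6J, and 22.7-fold and 14.4-fold above the duodenum/jejunum. Without C57BL/6J mouse 2 the C57BL/6J ileum mean was 6.22 ± 1.89 TPM, and the colon stood 107-fold above it. The duodenum/jejunum stood 4.69-fold and 4.47-fold above the ileum, in all 6 and all 7 mice (log2 differences, ileum minus duodenum/jejunum, of -1.96 ± 0.32 and -2.27 ± 0.29 SE). The C57BL/6J values were 7.29-fold and -2.56 without mouse 2. Its neighbour Car13 did not share this order.

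Against C57BL/6J, colon Car2 of BALB/cJ fell by 0.22 (log2), from a mean of 661 ± 56.7 to 566 ± 19.2 TPM (SE 0.05, limma adjusted p 0.00846). The ranges overlapped, with 4 of 6 BALB/cJ libraries below every C57BL/6J one. The call ended with the epithelium score as a covariate (-0.26, adjusted p 0.395 in limma; 0.00159 to 0.395 over 19 alternatives). It was also lost without BALB/cJ mice 3 and 5, whose colon libraries held the most pancreatic acinar marker RNA, at -0.205 and a limma adjusted p that rounds to 0.05. The epithelium score was itself lower in the BALB/cJ colon, 8.91 ± 0.05 against 9.04 ± 0.02, with 3 of 10 epithelial genes called lower. It was at most 8.99 in BALB/cJ and at least 9.03 in C57BL/6J colon libraries. Without overlap, this covariate cannot be told apart from strain, and no conclusion is drawn from the call lost with it. In the duodenum/jejunum, Car2 averaged 24.9 ± 9.13 TPM in BALB/cJ, beside 46.0 ± 20.3 in C57BL/6J, a log2 difference of -0.82 with a 95% interval of -1.52 to -0.11 that was not called after adjustment (limma adjusted p 0.16).

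Duodenal Car2 moved with genes of stomach and Brunner glands. These 7 markers summed to 2.00 TPM in BALB/cJ mouse 5, to 1352 in BALB/cJ mouse 2, to 11 in C57BL/6J mouse 3 and to 235 in C57BL/6J mouse 1, and to 1938 to 4414 in the other 9 libraries. Car2 stood at 11.2, 16, 18.5 and 26.2 TPM in those 4 libraries, the lowest values of each strain. With the marker score as a covariate, an alternative added after these values were seen, Car2 had a strain difference of -0.87 that was called (limma adjusted p 0.00254; 0.00254 to 0.285 over 19 alternatives). How far along the gut each piece was cut is not labelled, and its part in the result was not tested.

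Car13, a cytosolic enzyme and the gene at the other end of the cluster, ran opposite to Car1 and Car2. Colon levels were 16.1 to 19.5 TPM (median 17.9) in BALB/cJ and 16.8 to 20.3 (median 19.3) in C57BL/6J. In the ileum they were 30.5 to 62.7 (median 51.9) and 35.4 to 57.1 (median 48.8), and in the duodenum/jejunum 36.6 to 60 (median 47.6) and 41.4 to 56.3 (median 45.2). Every small intestinal library lay above every colon library. The ileum stood 2.85-fold and 2.55-fold above the colon, and the duodenum/jejunum 2.74-fold and 2.54-fold, in BALB/cJ and C57BL/6J (log2 differences, colon minus the other tissue, of -1.43 ± 0.13 to -1.29 ± 0.12 SE). The 2 parts of the small intestine did not differ beyond their spread (limma adjusted p 0.815 and 0.995). Nor was a strain difference called: the values were -0.08 (colon), 0.06 (ileum) and 0.01 (duodenum/jejunum), with 95% intervals that spanned -0.27 to 0.39 at the widest.

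Car4, the lipid-anchored enzyme of the apical membrane, was the most abundant of the 7 in the small intestine and came after Car1 in the colon. It ran from 554 to 910 TPM (median 749) in the BALB/cJ and 831 to 1010 (median 887) in the C57BL/6J colon. In the ileum it ran from 85.8 to 142 (median 104) and 92.3 to 235 (median 182), and in the duodenum/jejunum from 93.7 to 125 (median 106) and 81.4 to 155 (median 142). The colon lay above the rest in every mouse, 6.79-fold and 5.20-fold above the ileum and 7.03-fold and 6.91-fold above the duodenum/jejunum in BALB/cJ and C57BL/6J. In C57BL/6J the ileum stood above the duodenum/jejunum in 5 of 7 mice (log2 difference 0.37, limma adjusted p 0.127). Without mouse 2 that difference was 0.54 and called (limma adjusted p 0.00709; labels of this mouse's pieces are in doubt as described). In BALB/cJ it was 0.03 with a 95% interval of -0.31 to 0.37.

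Against C57BL/6J, colon Car4 of BALB/cJ fell by 0.29 (log2), from 901 ± 60.8 to 746 ± 116 TPM (SE 0.09, limma adjusted p 0.0315). The ranges overlapped, and 5 of 6 BALB/cJ libraries lay below every C57BL/6J one. This call rested on single libraries: it ended when BALB/cJ mouse 2 or 5 or C57BL/6J mouse 3 or 5 was left out, at limma adjusted p of 0.058 to 0.0642. With the epithelium score as a covariate the sign turned (0.19, adjusted p 0.665 in limma, with 0.00734 to 0.665 over 19 alternatives). That score did not overlap between the strains in the colon, so this fit cannot tell it apart from strain. In the ileum Car4 averaged 110 ± 23.1 TPM in BALB/cJ, beside 173 ± 52.1 in C57BL/6J, a difference of -0.61 ± 0.21 SE just short of a call (limma adjusted p 0.0525). It was called in 5 of 18 alternatives, among them without BALB/cJ mouse 3 (limma adjusted p 0.0447), C57BL/6J mouse 3 (0.0293) or C57BL/6J mouse 2. Without C57BL/6J mouse 2, which held 92.3 TPM, the C57BL/6J mean was 187 ± 41.5 and the difference -0.75 was called (limma adjusted p 0.00676; 0.00676 to 0.134 over 18 alternatives). In the duodenum/jejunum the means were 106 ± 10.6 and 130 ± 25.1 TPM (difference -0.27, adjusted p 0.26 in limma). The strain differences of Car4 in the 3 tissues were not told apart, with limma adjusted p of 0.364 to 0.989 for the tests between tissues.

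Car9, the hypoxia-inducible membrane enzyme, had the narrowest range of group means among the 7 genes, 55.1 to 79.3 TPM. Its levels were 71.4 to 88.3 TPM (median 78.3) in the BALB/cJ and 66.4 to 83.3 (median 74.2) in the C57BL/6J colon. They were 46.4 to 69.2 (median 57.2) and 47.0 to 63.2 (median 54.4) in the ileum, and 61.2 to 104 (median 74.4) and 48.5 to 79.7 (median 64.5) in the duodenum/jejunum. The colon stood 1.39-fold and 1.34-fold above the ileum in BALB/cJ and C57BL/6J, without overlap (log2 differences of 0.48 ± 0.11 and 0.42 ± 0.10 SE, limma adjusted p 5.7e-04 and 7.2e-04). Relative to the median of all genes, which was 0.11 and 0.24, the excess was smaller, and with median-of-ratios scaling the C57BL/6J difference was 0.13 and no longer called (limma adjusted p 0.191). Colon and duodenum/jejunum differed by 0.07 and 0.20 (limma adjusted p 0.609 and 0.0871). Under median-of-ratios scaling both turned negative, -0.29 in BALB/cJ, which was called (adjusted p 0.00845 in limma), and -0.13 in C57BL/6J. With the animal as a block the C57BL/6J difference was called (0.20, limma adjusted p 0.032). The ileum was below the duodenum/jejunum in 6 of 6 BALB/cJ mice, by -0.41 on the log2 scale (limma adjusted p 0.00369; 3.2e-06 to 0.00589 over 5 alternatives, with -0.64 under median-of-ratios scaling). In C57BL/6J it was so in 6 of 7 mice (-0.22, limma adjusted p 0.211), and called under median-of-ratios scaling (-0.27, limma adjusted p 0.036).

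No strain difference of Car9 was called. The values were 0.10 for colon (79.3 ± 8.11 against 73.7 ± 5.33 TPM), 0.04 for ileum (56.9 ± 8.91 against 55.1 ± 6.62) and 0.23 for duodenum/jejunum (76.2 ± 14.9 against 64.6 ± 11), with limma adjusted p of 0.307, 0.82 and 0.352. The ileum value turned to -0.15 under median-of-ratios scaling. Of 15 hypoxia-inducible genes listed as company for Car9, limma called 5 higher and none lower in the BALB/cJ colon, 6 and none for the ileum, and 1 and none for the duodenum/jejunum. Over all genes 14.5%, 17.2% and 4.70% were called higher and 10.8%, 3.17% and 4.80% lower, and the ileum split became nearly even under median-of-ratios scaling (938 higher, 884 lower). Their median differences were 0.06, 0.15 and 0.17 beside 0.02, 0.17 and 0.01 over all genes. In the colon Pdk1, a kinase that holds back pyruvate oxidation, was at 54.1 ± 3.03 against 40.2 ± 2.91 TPM (log2 difference 0.42, limma adjusted p 5.3e-05). Ndrg1, a stress-response gene, was called in the 3 tissues, at 145 ± 9.33 against 118 ± 12.2 TPM in the colon, 78.6 ± 15 against 43.7 ± 8.82 in ileum and 114 ± 13.8 against 58.2 ± 22.2 in the duodenum/jejunum. Bnip3, a mitophagy receptor gene, was at 35.9 ± 5.23 against 23 ± 5.29 in the colon and 21 ± 5.19 against 11.7 ± 2.19 in the ileum.

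Car8, the non-catalytic member, had its highest mean in the colon, a lower one in the ileum and the lowest in the duodenum/jejunum. In the colon it ran from 14.5 to 29.3 TPM (median 24.4) in BALB/cJ and from 14.7 to 37.8 (median 31.5) in C57BL/6J. In the ileum it ran from 6.88 to 11.2 (median 8.22) and from 2.56 to 13.4 (median 10.2), and in the duodenum/jejunum from 3.55 to 4.84 (median 4.49) and from 4.86 to 7.62 (median 6.10). The colon stood 2.76-fold and 2.99-fold above the ileum and 5.41-fold and 4.60-fold above the duodenum/jejunum in BALB/cJ and C57BL/6J, in every mouse. Ileum exceeded duodenum/jejunum 1.96-fold in BALB/cJ (limma adjusted p 0.00499). In C57BL/6J this step was 0.45 on the log2 scale (limma adjusted p 0.205) and 0.74 without mouse 2 (limma adjusted p 0.00289), whose library labelled ileum held the lowest value, 2.56 TPM.

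In the duodenum/jejunum every BALB/cJ library lay below every C57BL/6J one for Car8, which held for 5.36% of genes in either direction. The means were 4.35 ± 0.51 and 6.31 ± 1.11 TPM, a log2 difference of -0.44 ± 0.12 SE (limma adjusted p 0.0268). The call ended, with a limma adjusted p of 0.0532 to 0.0655, without BALB/cJ mouse 1 or 6 or C57BL/6J mouse 2, 3 or 7. It held in 12 of 19 alternatives, with a limma adjusted p of 0.0169 to 0.0887 over them. In the colon (23.5 ± 5.36 against 29 ± 9.68 TPM) and the ileum (8.54 ± 1.5 against 9.69 ± 3.55) the strains overlapped and were not called (limma adjusted p 0.503 and 0.872).

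Within the colon, Car1, Car8 and Car12 were low in the same 3 libraries, those of BALB/cJ mouse 5 and C57BL/6J mice 1 and 6. Car1 stood at 1819 to 2513 TPM there and at 2622 to 5725 in the other 10, Car8 at 14.5 to 16 against 21.2 to 37.8, and Car12 at 20.6 to 22.3 against 27.5 to 42.5. Car2, Car4, Car9 and Car13 overlapped between these libraries and the rest. For Car2 the overlap came from BALB/cJ mouse 5 (557 TPM). C57BL/6J mice 1 and 6 held the highest colon Car2, 746 and 716 TPM, against at most 667 in the other 10. Markers of position along the gut moved with them. The 5 ileal markers summed to 50.8 to 90.0 TPM in the 3 libraries and 116 to 221 in the others, among them the bile acid transporter gene Slc51a (5.58 to 13.3 against 29.5 to 49.6). Hoxb13, a gene of the distal colon, was at 137 to 152 TPM in the 3 libraries and 78.0 to 133 in the others. The 3 libraries were picked out as the lowest for Car8 after their values were seen. The gap in Car8 therefore follows from the choice, and no test is given. The part of colon position in these levels was not tested. Among the other 10 libraries, Pearson's r of the deviations from the strain means was 0.31 for Car1 with Car8, 0.38 for Car1 with Car12 and 0.64 for Car8 with Car12 (Spearman's rho 0.24, 0.37 and 0.61), given as a description.

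**Figure D4:**
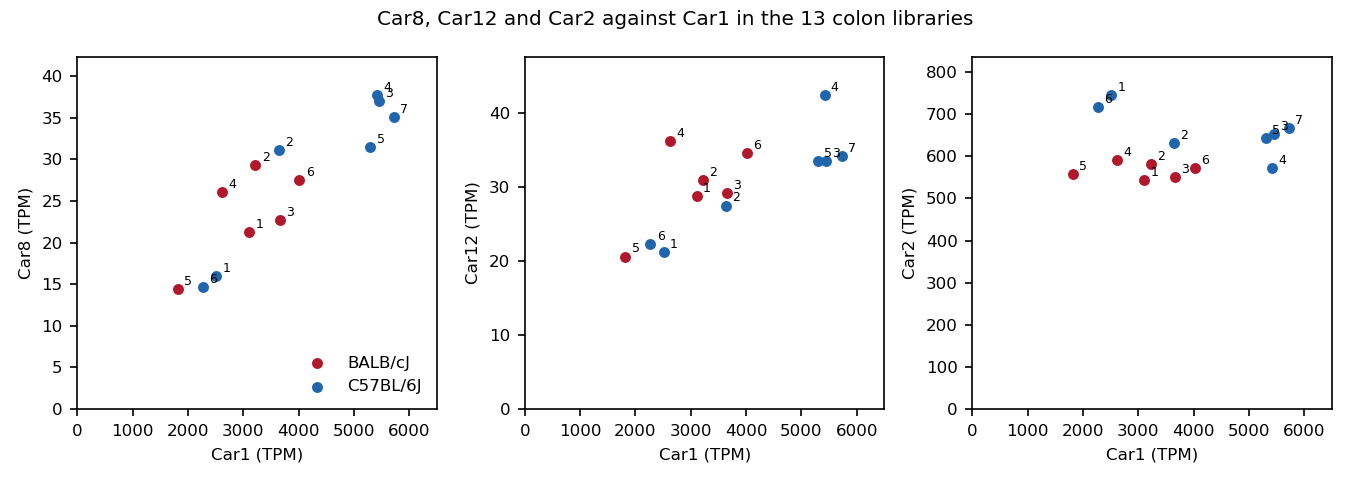
Points are the 13 colon libraries, numbered by mouse and coloured by strain, with TPM of Car8, Car12 and Car2 against TPM of Car1 on linear axes from 0. BALB/cJ mouse 5 and C57BL/6J mice 1 and 6 are the lowest for Car1, Car8 and Car12, and not for Car2.

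Of the other 9 carbonic anhydrase genes, Car3 reached the levels of the 7 described. It was at 78.8 ± 43.2 TPM in the BALB/cJ and 21.2 ± 9.89 in the C57BL/6J colon (28.7 to 130 against 4.92 to 37.8), 3.72-fold higher with a log2 difference of 1.81 ± 0.43 SE (limma adjusted p 0.00626). The ranges overlapped in the lowest BALB/cJ library. Fat cell markers moved with it: 5 of 6 tested were called higher in the BALB/cJ colon and the list summed to 115 to 306 against 41.7 to 126 TPM. The part of fat cells in the Car3 result was not tested. Car3 was not called in the ileum (54.7 ± 48.8 against 13.1 ± 9.0 TPM, limma adjusted p 0.249) or the duodenum/jejunum (7.5 ± 6.71 against 9.16 ± 5.32, limma adjusted p 0.629). Car11, another non-catalytic relative, was at 4.00 ± 0.69 and 3.28 ± 0.59 TPM in the colon and 3.48-fold and 7.19-fold above the ileum. In the ileum it was at 1.15 ± 0.49 against 0.46 ± 0.47 TPM, near the lowest level tested (log2 difference 0.59, limma adjusted p 0.0453). The mitochondrial Car5b stayed at 2.30 to 3.39 TPM and Car14 and Car15 at 1.09 to 1.85 in the means of the 6 groups, with no strain difference called. Car5a, Car6, Car7 and Car10 had group means under 1 TPM and were not tested between the strains; Car7 passed the filter over all 39 libraries and was not called between tissues.

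Genes that work with these enzymes were listed to show their surroundings, and their counts stand beside the shares called over all genes (colon 14.5% higher and 10.8% lower, ileum 17.2% and 3.17%, duodenum/jejunum 4.70% and 4.80%). Of the bicarbonate and chloride transporters tested, 2 of 9 were higher and none lower in the BALB/cJ colon, namely the chloride-bicarbonate exchanger Slc26a3 (638 ± 66.2 against 507 ± 79.2 TPM) and the sulfate transporter Slc26a2 (404 ± 45.2 against 345 ± 33.7). In the ileum 1 of 10 was higher, the chloride channel Cftr (61.0 ± 5.35 against 43.9 ± 8.61), and in the duodenum/jejunum 1 of 10 was lower, Slc26a2 (54.4 ± 8.91 against 105 ± 22.7). Medians of the list were 0.13, -0.02 and 0.01 in the 3 tissues. Of sodium-proton exchangers and proton pumps, the scaffold gene Slc9a3r2 alone was called, in the colon (1 of 8; 26.8 ± 3.37 against 20.9 ± 1.84 TPM) and the ileum (1 of 9; 20.3 ± 6.73 against 11.2 ± 2.24), and 0 of 10 in the duodenum/jejunum, where limma called 9.50% of all genes. Of short-chain fatty acid and lactate transporters, Slc16a3 was higher (12 ± 2.33 against 6.42 ± 1.87) and Slc16a1 lower (108 ± 4.30 against 129 ± 15.5) among 6 in the BALB/cJ colon. Slc16a1 was higher among 7 in the ileum (35.7 ± 1.24 against 30.8 ± 2.60), and Slc5a8 lower among 7 in the duodenum/jejunum (11.7 ± 1.89 against 28.7 ± 19.4).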

How the data were processed

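RNA from colon, ileum and duodenum/jejunum of 13 mice was sequenced, 39 libraries in 6 groups named by strain and tissue. Per the labels' protocols, extraction used PureLink columns, and ribosomal RNA was depleted (RiboZero) before TruSeq library preparation. Per the submitters' processing notes, kallisto 0.44.0 and the build GRCm38 were used; the transcript annotation was not given in the sources used here. As deposited by the authors, there was 1 table per tissue with 0 columns of other samples, whose values were read as log2(TPM + 1) because each library then sums to nearly the TPM total. Read depth cannot be had from TPM and is unknown, so errors come from the mice alone. The 26 entries named as dates, at most 0.24% of TPM, were left out. An effect of BALB/cJ variants on mapping to the reference was not tested.

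Strains were compared per tissue, and tissues and strain differences between tissues in a fit of all 39 libraries, by limma 3.58.1 (R 4.3.3, variance trend). A pseudocount of 1 was used, which makes log2 differences of low genes smaller than ratios of TPM; folds are ratios of mean TPM. Genes that reached 1 TPM in 6 or more libraries were tested, 2-sided, with Benjamini-Hochberg adjustment over all of them, and called at an adjusted p under 0.05. The code was tested on simulated data. The members and lists were chosen with earlier results of these data known, and the adipocyte list after its values were seen. Named were all 7 members, other carbonic anhydrase genes, and up to 4 called genes per list and tissue by smallest adjusted p. The main fit of all 39 libraries had no term for the animal, whose block was an alternative. The 3 libraries of 1 animal, treated as independent in the main fit, pair by its label. Their deviations from the group means correlated with medians of 0.15, 0.09 and 0.23 in BALB/cJ (colon with ileum, colon with duodenum/jejunum, ileum with duodenum/jejunum) and 0.11, 0.10 and 0.25 in C57BL/6J. Labels do not say whether mice shared cages or litters. Alternatives were another pseudocount, no filter, median-of-ratios (RLE) scaling, an epithelium or gastric marker covariate, blocks, and libraries left out.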

Additional observations from a re-analysis of the deposited data

Results flagged for a closer look

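In 4 of 42 groups of a gene, strain and tissue, 1 library stood apart from its group by Dixon's criterion, which chance does in about 1 of 20 groups. Car1 was 12.8 TPM in the ileum of C57BL/6J mouse 1, where the next was 2.53, and 15.1 TPM in the duodenum/jejunum of BALB/cJ mouse 1, where the next was 3.88. Car2 was 34.8 TPM in the library labelled ileum of C57BL/6J mouse 2, where the next was 9.15; the region markers of that library go against its label. Car9 was 104 TPM in the duodenum/jejunum of BALB/cJ mouse 6, where the next was 75.7.

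The strain difference of Car12 differed between colon and ileum by -1.45 on the log2 scale, by the test of the difference itself.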

How the results depend on the processing

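The colon count of 2 called genes was 1 without the filter and 0 with the epithelium covariate, with 0 also when BALB/cJ mice 3 and 5, whose colon libraries held 950 and 430 TPM of pancreatic acinar markers, were left out together (an alternative added after seeing the data). The epithelium score separated the strains without overlap in the colon, so its covariate cannot be told apart from strain there. The ileum count of 1 was 2 under RLE scaling and with the epithelium covariate. The duodenum/jejunum count of 2 was 1 with the epithelium covariate and 3 with the added gastric and Brunner gland covariate. Leaving out 1 mouse gave 1 to 2 calls in colon and ileum and 1 to 3 in the duodenum/jejunum. Without C57BL/6J mouse 2, the count rose from 0 to 1 for the strain difference between colon and duodenum/jejunum and from 2 to 4 for ileum against duodenum/jejunum in C57BL/6J.

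The mouse number shared by the strains belongs to different animals, whose deviations correlated with medians of -0.03, -0.07 and 0.00. As a replicate block it gave 1 call in each tissue, and turned Car12 in the colon to 0.0171 and Car8 and Car13 in the ileum to 0.00912 and -0.0091. The block ended the calls of Car2 in the colon (limma adjusted p 0.0642) and Car8 in the duodenum/jejunum (0.0566). With the animal as a block across tissues, Car9 between colon and duodenum/jejunum in C57BL/6J alone changed its call.

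RLE scaling, which moved the all-gene median by over 0.1 in the ileum and between tissues, changed the ileum split of called genes from 2677 higher and 492 lower to 938 and 884. Splits of tissue calls became nearly even too: 5190 and 2713 became 3917 and 3752 (colon against ileum, BALB/cJ) and 7963 and 2596 became 4848 and 4619 (C57BL/6J). Colon against duodenum/jejunum went from 8392 and 2486 to 4988 and 4960 (BALB/cJ) and from 8452 and 2619 to 4819 and 4789 (C57BL/6J), and ileum against duodenum/jejunum in BALB/cJ from 6074 and 1306 to 2805 and 2937. Calls of strain differences between tissues went from 249 and 449 to 331 and 198 (colon against ileum), from 658 and 300 to 628 and 408 (colon against duodenum/jejunum) and from 628 and 44 to 49 and 70 (ileum against duodenum/jejunum). It turned Car9 and Car13 in the ileum to -0.15 and -0.13. It turned Car9, colon against duodenum/jejunum, to -0.29 in BALB/cJ and -0.13 in C57BL/6J, and Car4 and Car13, ileum against duodenum/jejunum in BALB/cJ, to -0.20 and -0.185. Of the tests between tissues, Car13 turned to 0.0229 (colon against ileum) and -0.13 (ileum against duodenum/jejunum). The epithelium covariate turned Car4 in the colon to 0.19, and leaving out BALB/cJ mice 3 and 5 turned Car12 there to 0.12. Leaving out 1 mouse turned small differences that were not called: Car12 in the colon (-0.0933 to 0.0862), Car8 (-0.317 to 0.0186), Car9 (-0.0196 to 0.0937) and Car13 (-0.00986 to 0.194) in the ileum, and Car1 (-0.50 to 0.0799) and Car13 (-0.0516 to 0.0879) in the duodenum/jejunum. Without C57BL/6J mouse 2, the colon against ileum tests of Car2 and Car8 turned to -0.0584 and 0.104. Over all genes, calls in the colon fell from 3986 to 640 with the epithelium covariate and those in the ileum from 3169 to 1822 under RLE scaling and 929 with the block. The epithelium score did not overlap between the strains in the colon, so the fall there cannot be read apart from strain. The strain differences between ileum and duodenum/jejunum fell from 672 to 119 under RLE scaling and 391 without the filter, and C57BL/6J calls between ileum and duodenum/jejunum rose from 1940 to 3510 without mouse 2. The causes were not tested. Read depth is unknown, so low members such as Car1 in the small intestine carry an error that TPM does not show.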

Other observations

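Genes most like each member were picked by a fixed rule from genes reaching 5 TPM in a group, and the likeness is a description with no test. By centred means of the 6 groups, Retnlb, a goblet cell gene, and Aqp8, a colonic water channel, lay nearest to Car1. Their root mean square differences were 1.04 and 1.23 on the log2 scale. Sptssb (0.61) and Cyp2c55 (0.68) lay near Car2. Rasd2 (0.19), Khdrbs3 (0.22) and Lum (0.24) lay nearest to Car12. Dgkh (0.15) lay nearest to Car4, Lrrc42 (0.07) to Car8, Dennd1b (0.02) to Car9 and Vmp1 (0.03) to Car13.

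By deviations from the group means over the 39 libraries, which share normalization and, in threes, an animal, Car2 went most closely with Sult6b2 (Pearson's r 0.86, Spearman's rho 0.70), Otop3 (0.86 and 0.63) and Tmprss15, the enteropeptidase gene of the proximal small intestine (0.86 and 0.72). Car8 went with the positional genes Hoxb6 (0.86 and 0.83) and Hoxb7 (0.83 and 0.66) and with Tlr2, a bacterial lipoprotein receptor gene (0.85 and 0.76). Car12 went, among entries with a gene symbol, with Prom1, a gene of apical membrane protrusions (0.88 and 0.84), and Galnt4 (0.83 and 0.82). Car4 went with Gdpd1 (0.75 and 0.64), Car13 with Rnf114 (0.85 and 0.82), Car9 with Cnot1 (0.75 and 0.72) and Car1, less closely, with Mettl7b (0.65 and 0.62). The libraries of C57BL/6J mouse 2 are among the 39, and these correlations were not computed without them. In its library labelled ileum, Car2 was 34.8 TPM, where the next in the group was 9.15. Tmprss15 is among the duodenum and jejunum markers that go against the label of that library. How far the likeness of Car2 and Tmprss15 rests on it was not tested.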
